A study of Mus musculus with 6 samples.

Results

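Peptide processing and neuroendocrine genes were followed in RNA from the prostates of C57BL/6 mice. The set holds 10 genes, Cpe, Qpct, Pam, Pcsk1, Pcsk2, Chga, Chgb, Scg2, Scg5 and Syp, out of 34745 in the deposited table, and rows were taken by gene symbol. The members were chosen by their expression in the same mice, including the difference between the groups that is described here. Their group differences are therefore given as a description, without p-values. All 10 members passed the filter on low counts, as did 15580 genes in all.

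The male mice were 6 to 8 weeks old at the start. In the T + E2 group (n = 3), 1 slow-release pellet of testosterone and estradiol lay under the skin for 12 weeks and was renewed each month. The control mice (CON group, n = 3) received only an incision in the skin of the back that was closed again, on the same occasions. All mice had the same strain background, and the labels name no transgene or mutation. Prostate tissue was sequenced without cell sorting, so gland epithelium, stroma, muscle, vessels and nerve contributed to 1 library per mouse. In such tissue, fewer cells of a type and less RNA per cell cannot be told apart.

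Peptide hormones and neuropeptides are made as long precursors that are cut in the secretory pathway. The prohormone convertases PC1/3 (Pcsk1) and PC2 (Pcsk2) cut after pairs of basic residues, carboxypeptidase E (Cpe) trims these residues away, and peptidylglycine alpha-amidating monooxygenase (Pam) or glutaminyl cyclase (Qpct) then modifies the ends of the peptide. The granins, such as chromogranin A (Chga), chromogranin B (Chgb) and secretogranin II (Scg2), fill the dense-core granules in which this happens, secretogranin V (Scg5, also called 7B2) assists PC2, and synaptophysin (Syp) sits in the membrane of small vesicles. In the prostate these genes are known both from scattered neuroendocrine cells of the epithelium and from the autonomic nerves and ganglia that supply the gland.

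The libraries held 14816146 to 16555549 counts on genes, so that 3 counts, taken as the detection limit, were worth 0.182 to 0.207 TMM-normalized counts per 1000000 counts of the library (CPM), and this limit covers counting error only. Replicate 1 of the T + E2 group stood apart in nerve genes. The summed level of 20 markers of neurons and nerve fibres was 632.2, 654.6 and 546.6 CPM in the CON mice but 151.4 CPM in T + E2 replicate 1, against 316.7 and 321.9 CPM in the other T + E2 mice. Replicate 2 of the CON group stood apart in seminal vesicle genes, with 4579 CPM of Svs4 against 0.992 and 0.126 CPM in the other CON mice. Prostate markers were present in every mouse, among them Hoxb13 at 388.9 to 471.6 CPM. Probasin (Pbsn), an androgen-dependent secretory protein, fell, with 14160 ± 2219 CPM in the CON and 1443 ± 269.2 CPM in the T + E2 group (SD, n = 3; log2 fold change -3.29, adjusted p = 2.45e-05 by the edgeR quasi-likelihood fit).

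Promoter sequences from RefSeq (build GRCm38.p6) could be matched to 8 of the 10 members, with 9 start sites because Pam had more than 1. They are shown because members with different group differences held the same element. The cAMP response element, TGACGTCA, is bound by CREB-type factors and was searched on both strands from 250 bases before each start to shortly after it. It was found for Scg2, Chgb and Pcsk1, while 1.79% of all 32851 promoters held it. Its core, TGACG, which overlaps the full element, was found for these 3 and for Chga, Scg5 and Pcsk2, and 20.8% of all promoters held it. Each line gives 30 bases, 5′ to 3′ along the gene, with the match in capitals. The windows lie at chr12:102554885-102554914 (plus strand) for Chga, chr1:79440076-79440105 (minus) for Scg2, chr2:132781559-132781588 (plus) for Chgb, chr13:75089768-75089797 (plus) for Pcsk1, chr2:113829249-113829278 (minus) for Scg5 and chr2:143546087-143546116 (plus) for Pcsk2.
Chga: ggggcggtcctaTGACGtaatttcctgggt
Scg2: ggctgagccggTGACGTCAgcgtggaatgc
Chgb: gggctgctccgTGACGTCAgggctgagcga
Pcsk1: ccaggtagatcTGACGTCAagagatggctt
Scg5: aaaggaggtaaaTGACGttcataggggtcg
Pcsk2: ctggcgggcgcgCGTCAcccgggctggcgc

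The full element started 68, 72 and 78 bases before the RefSeq start of Scg2, Chgb and Pcsk1, and the core in Chga started 44 bases before it. By the gene coordinates of the deposited table, the windows of Chgb (gene start 132781278) and Scg2 (minus strand, gene start 79440120) lie inside the gene. For these genes the element is therefore downstream of that annotated start. Pcsk2 held the core on the opposite strand, which is read here as CGTCA. No promoter of the set matched the androgen response element (AGAACA, any 3 bases, TGTTCT; 0.00913% of all promoters) or the oestrogen response element (GGTCA, any 3 bases, TGACC; 0.07% of all promoters). A match describes letters in this window and is not evidence of binding, and the lack of a match concerns only this window.

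The data showed 3 patterns among the members. Cpe, Qpct and Chga were higher in all T + E2 mice than in all CON mice, at 5.91-fold, 16.2-fold and 2.66-fold on the group means. Pam, Pcsk1 and Syp were lower in all T + E2 mice, by little in Pam and by nearly a factor of 2 in the other two (1.11-fold, 1.97-fold and 1.83-fold higher in the CON mice). Pcsk2, Chgb, Scg2 and Scg5 overlapped between the groups, and their T + E2 mice were spread widely. A gene counted as called where edgeR's quasi-likelihood test gave an adjusted p below 0.05 and a log2 fold change beyond 1 in either direction. By this rule 3 of the 10 members were called, where 7.64% of all tested genes were called. All 3 were called as higher in the T + E2 group, against 4.27% of all tested genes, and 0 as lower, against 3.38%. DESeq2 also called 3. In 6 of the 10 members the groups did not overlap, where this held for 40.7% of all tested genes. Since the members were chosen on this contrast, nothing is read from these counts.

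**Figure D1:**
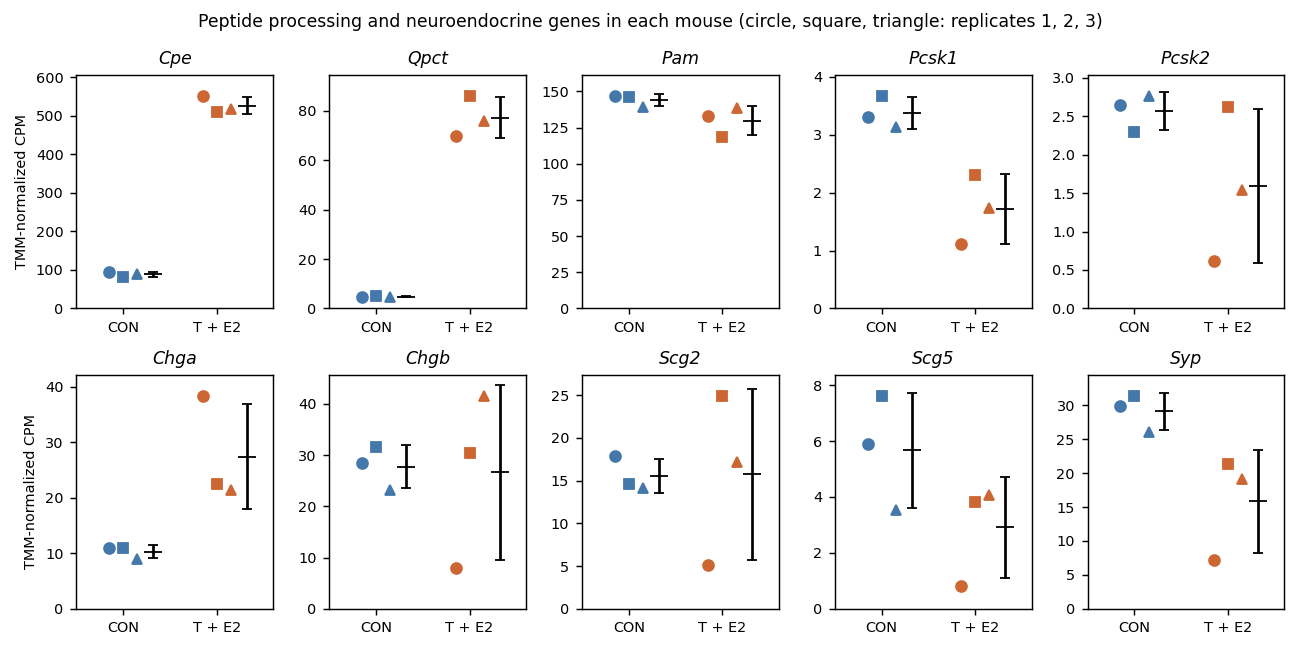
TMM-normalized CPM of each member in each mouse, with circles, squares and triangles for replicates 1, 2 and 3, and the mean and SD of each group (n = 3) beside them in black. Cpe, Qpct and Chga lie higher in every T + E2 mouse, and the T + E2 circle is the lowest point in Pcsk1, Pcsk2, Chgb, Scg2, Scg5 and Syp but the highest in Chga.

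Cpe (ENSMUSG00000037852, chromosome 8 of GRCm38, 64592558 to 64693040), the carboxypeptidase that removes basic residues after the convertase cut, had 95.2, 82.9 and 88.8 CPM in CON mice, against 551.8, 509 and 518 CPM in the T + E2 mice. The T + E2 values lay far above the CON values and close together, with a coefficient of variation of 4.29% between mice. The log2 fold change was 2.56 (standard error 0.10), and Cpe ranked 181 among the 15580 tested genes by log2 fold change from the top. Per length of transcript Cpe was the most abundant member in both groups, at 43.2 ± 2.98 FPKM in the CON and 248.8 ± 5.71 FPKM in the T + E2 group (SD, n = 3 in each). In the T + E2 group 99.1% of the tested genes had a mean FPKM no higher than that of Cpe, against 94.8% in the CON group.

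Qpct (ENSMUSG00000024084, chromosome 17, 79051906 to 79090243), the cyclase that turns an amino-terminal glutamine into pyroglutamate, had 4.83, 4.85 and 4.65 CPM in CON mice, against 69.9, 86.1 and 75.7 CPM in the T + E2 mice. It showed the largest difference of the set, at 4.01 on the log2 scale (standard error 0.12) and rank 74 by log2 fold change from the top. The CON mice differed by only 2.36% (coefficient of variation). Its place in the order of levels per length changed as well, from 2.52 ± 0.102 FPKM in the CON group, below Scg5 and Scg2, to 39.7 ± 4.87 FPKM in the T + E2 group, where only Cpe was higher. The Golgi paralog Qpctl was not called, with 58.9, 56.6 and 60.7 CPM in CON mice, against 54.4, 42.3 and 50.6 CPM in the T + E2 mice (log2 fold change -0.26, adjusted p = 0.136 from edgeR). The ratio of Qpct to Qpctl in FPKM was 0.206, 0.216 and 0.193 in CON mice, against 3.24, 5.13 and 3.77 in the T + E2 mice, so Qpctl had the higher level per length in CON mice, against Qpct in the T + E2 mice.

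Chga (ENSMUSG00000021194, chromosome 12, 102554969 to 102565027), the acidic granule protein used as a marker of neuroendocrine cells, had 11, 11 and 8.98 CPM in CON mice, against 38.4, 22.5 and 21.5 CPM in the T + E2 mice. The highest value belonged to T + E2 replicate 1. The log2 fold change was 1.41 (standard error 0.23) with all mice and 1.09 (standard error 0.15) without that mouse. Chga, Cpe and Qpct were called in all 15 alternative analyses, which re-use the same mice and include the main fit with no fold threshold. Nothing is read from this, since the members were chosen on this contrast. Pam (ENSMUSG00000026335, chromosome 1, 97795114 to 98095646), which amidates the carboxy-terminal end of peptides, had 147, 145.9 and 139.3 CPM in CON mice, against 132.7, 118.5 and 138.3 CPM in the T + E2 mice. The closest mice of the groups differed by less than the spread within a group, and the log2 fold change was -0.15 (standard error 0.09). On the deposited FPKM values, and with library totals in place of TMM, the groups overlapped in Pam, which left 5 members whose groups did not.

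The level of Cpe relative to 2 other processing enzymes, Pam and Cpd, differed between the groups. Whether these enzymes act in the same cells or on the same peptides was not tested. In the same mice the ratio of Cpe to Pam in FPKM was 5.31, 4.66 and 5.23 in the CON group and 34.1, 35.2 and 30.7 in the T + E2 group. The ratio of Cpe to Cpd, a carboxypeptidase of the same family that works in the trans-Golgi network, was 2.24, 2.36 and 2.38 against 12.3, 12.5 and 12.6. The ratios within a group lay close together and the groups were far apart in both cases. The log2 fold changes of Pam and Cpd were only -0.15 and 0.14. Both ratios therefore restate the difference in Cpe, which was chosen on this contrast.

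The convertases that act before Cpe were scarce. Pcsk1 (ENSMUSG00000021587, chromosome 13, 75089826 to 75132498) had 3.31, 3.67 and 3.14 CPM in CON mice, against 1.11, 2.31 and 1.73 CPM in the T + E2 mice, with counts of 50, 56 and 50 against 16, 38 and 26. All T + E2 values were lower, the log2 fold change was -0.96 (standard error 0.29), and the gene passed both thresholds in 1 of 14 alternatives, the one without T + E2 replicate 2, at -1.24. Pcsk2 (ENSMUSG00000027419, chromosome 2, 143546156 to 143816285) had 2.65, 2.3 and 2.76 CPM in CON mice, against 0.622, 2.62 and 1.53 CPM in the T + E2 mice. The highest T + E2 value lay within the CON range, and the log2 fold change moved from -0.68 (standard error 0.44) to -0.30 without T + E2 replicate 1. Per length these were the lowest members in both groups, at 0.936 ± 0.0899 and 0.309 ± 0.0252 FPKM in the CON and 0.466 ± 0.170 and 0.188 ± 0.119 FPKM in the T + E2 group.

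**Figure D2:**
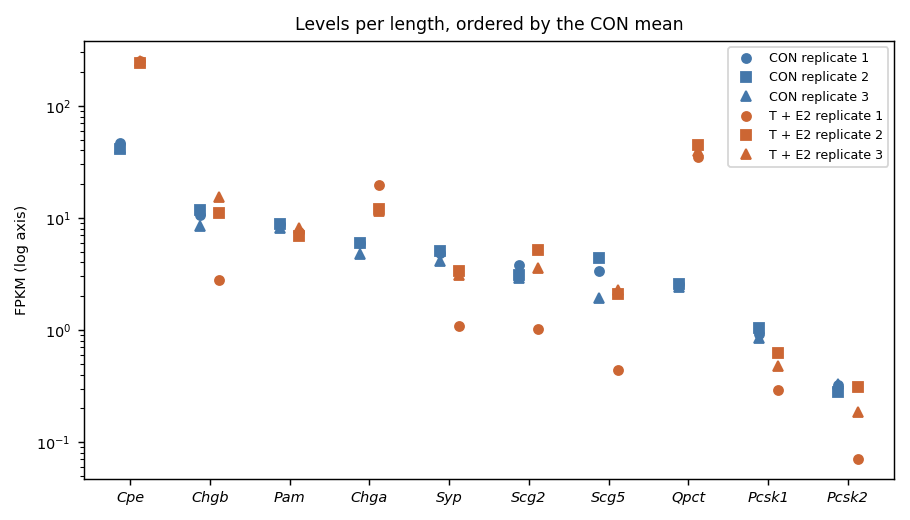
Deposited FPKM of the members in each mouse on a log axis, ordered by the CON mean, with blue points for the CON and orange points for the T + E2 mice. Qpct moves from the lower part of the order to the place after Cpe, while Pcsk1 and Pcsk2 stay lowest.

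In the CON mice the order of levels per length was Cpe, Chgb, Pam, Chga, Syp, Scg2, Scg5, Qpct, Pcsk1 and Pcsk2. Chgb and Pam, Chga and Syp, Scg2 and Scg5, and Scg5 and Qpct were neighbours whose ranges over the CON mice overlapped. In the T + E2 mice the order was Cpe, Qpct, Chga, Chgb, Pam, Scg2, Syp, Scg5, Pcsk1 and Pcsk2. There the ranges of neighbours did not overlap only between Cpe and Qpct, Qpct and Chga, and Pam and Scg2.

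Chgb and Scg2 were not called, and their T + E2 mice lay on both sides of the CON mice. Chgb (ENSMUSG00000027350, chromosome 2, 132781278 to 132795079) had 28.5, 31.6 and 23.2 CPM in CON mice, against 7.95, 30.4 and 41.5 CPM in the T + E2 mice. T + E2 replicate 1 lay below and replicate 3 above all CON mice, a range of 5.23-fold within the group. The log2 fold change of -0.06 (standard error 0.47) became 0.37 (standard error 0.18) without T + E2 replicate 1. Scg2 (ENSMUSG00000050711, chromosome 1, 79434669 to 79440120), from which the neuropeptide secretoneurin is cut, had 17.9, 14.6 and 14.1 CPM against 5.11, 24.9 and 17.1 CPM. Again replicate 1 was lowest, with a range of 4.86-fold in the T + E2 and 1.26-fold in the CON group, and the log2 fold change moved from 0.02 (standard error 0.45) to 0.44 without that mouse.

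The ratio of Chga to Chgb in FPKM was 0.561, 0.504 and 0.564 in CON mice, against 7.03, 1.08 and 0.753 in the T + E2 mice. The groups did not overlap in this ratio, and T + E2 replicate 1 was far from the other T + E2 mice. The ratio of Pcsk1 to Pcsk2 was 2.88, 3.68 and 2.61 against 4.09, 2.03 and 2.6, and there the groups overlapped.

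Scg5 (ENSMUSG00000023236, chromosome 2, 113776362 to 113829121), the chaperone of PC2, had 5.89, 7.61 and 3.52 CPM in CON mice, against 0.829, 3.83 and 4.07 CPM in the T + E2 mice. The groups overlapped, and the CON mice themselves varied by 36.2% (coefficient of variation), the most of any member in that group. Its log2 fold change was -0.95 (standard error 0.52), and -0.52 without T + E2 replicate 1. Syp (ENSMUSG00000031144, chromosome X, 7638471 to 7653256), a marker of both nerve endings and neuroendocrine cells, had 30, 31.4 and 26 CPM against 7.19, 21.3 and 19.1 CPM. All T + E2 mice lay below the CON mice, at -0.87 on the log2 scale (standard error 0.33), and at -0.52 without T + E2 replicate 1.

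**Figure D3:**
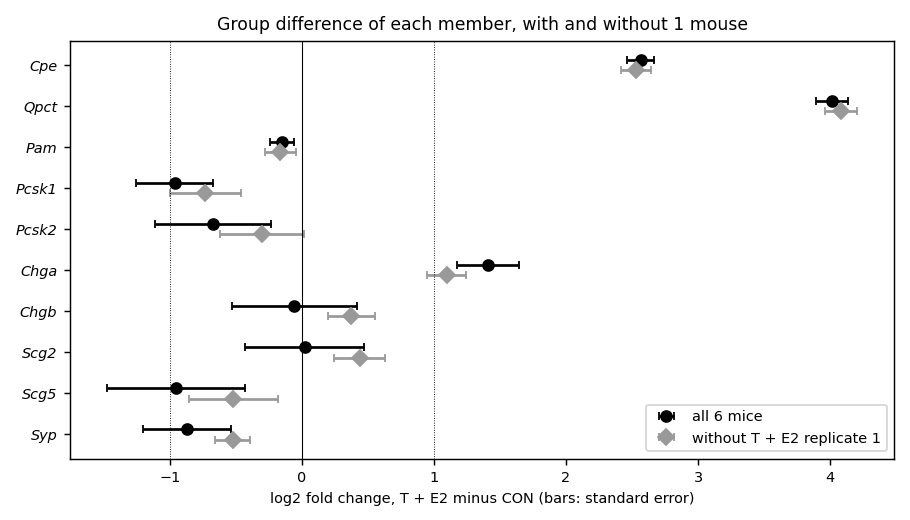
Log2 fold change (T + E2 minus CON) of each member with its standard error from edgeR, with all 6 mice (black) and without T + E2 replicate 1 (grey), with dotted lines at the threshold of 1 in either direction. Cpe and Qpct barely move, Chga moves from 1.41 to 1.09, and Chgb and Scg2 move from near 0 to 0.37 and 0.44.

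The members also differed in how they varied between mice of a group. In 6 of the 10 members, Pcsk1, Pcsk2, Chgb, Scg2, Scg5 and Syp, T + E2 replicate 1 had the lowest value of all 6 mice, where this mouse was lowest for 14.6% of all tested genes. The coefficient of variation in the T + E2 group was 35.1 to 64.2% in these 6 members and 34.5% in Chga, against 4.29% in Cpe, 7.87% in Pam and 10.6% in Qpct. In the CON group it was 2.36 to 15.4% in the 9 members other than Scg5. The same mouse was the lowest of all for 19 of 20 tested markers of neurons and nerve fibres, 11 of 12 Schwann cell markers, 7 of 9 neuroendocrine lineage markers and 0 of 11 markers of stroma and smooth muscle. The part of nerve content in the values of these members was not tested.

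To set the members beside the nerve content, each value was divided by the summed CPM of the 20 nerve markers of the same mouse, a ratio that was added after the values were seen. Syp then lay at 4.74, 4.79 and 4.76% of the sum in CON mice, against 4.75, 6.72 and 5.94% in the T + E2 mice. On this scale T + E2 replicate 1 was within the CON range for Syp. Scg5 lay at 0.931, 1.16 and 0.644% against 0.548, 1.21 and 1.26%, and Pcsk2 at 0.418, 0.351 and 0.506% against 0.411, 0.826 and 0.476%. Chgb was at 4.51, 4.83 and 4.24% against 5.25, 9.6 and 12.9%, and Scg2 at 2.83, 2.23 and 2.59% against 3.38, 7.86 and 5.32%, so that for both all T + E2 mice lay above the CON mice. Chga was at 1.74, 1.67 and 1.64% against 25.3, 7.11 and 6.67%. The sum itself was lower in all T + E2 mice, so a member that fell less than the sum rises on this scale. Pam, whose CPM was lower in all T + E2 mice, lay at 23.25, 22.29 and 25.48% against 87.63, 37.41 and 42.95%. Cpe and Qpct also lay above the CON mice on this scale, and Pcsk1 overlapped. Among the granins of the set, only Chga had its highest level in the mouse with the lowest nerve markers.

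**Figure D4:**
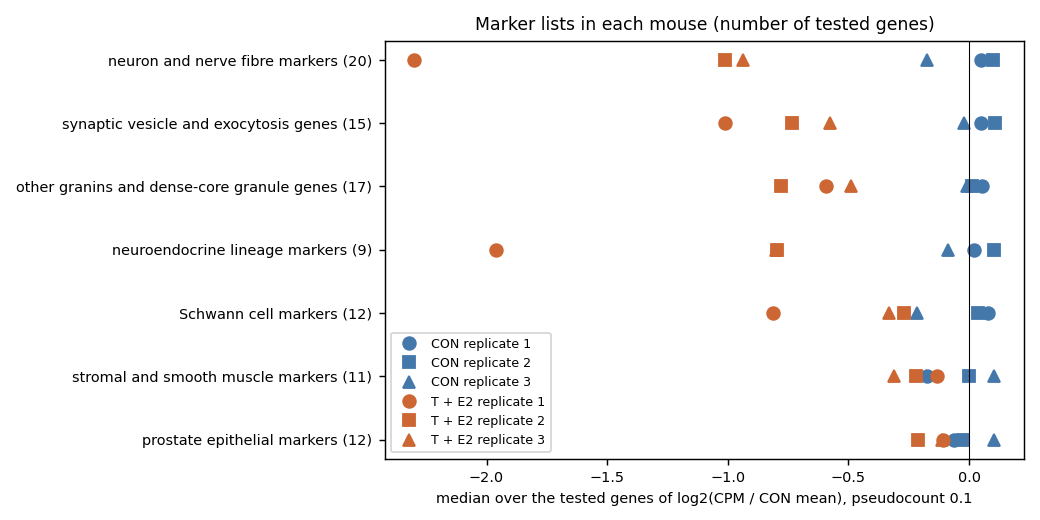
Median over the tested genes of each list of log2(CPM / CON mean), with a pseudocount of 0.1 CPM, for each mouse. T + E2 replicate 1 (orange circle) lies at -2.30 for nerve markers, -1.96 for neuroendocrine lineage markers and -0.81 for Schwann cell markers, but within the spread of the other mice for stroma and for prostate epithelium.

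For each called member, the 3 tested genes with the highest Pearson correlation of log2 CPM over the 6 mice were found as a description, since the difference between the groups sets most of such a value. For Cpe these were Gng12 (r = 0.999), Ampd3 (0.9989) and Sec14l4 (0.9987), and 116 tested genes had an r above 0.99. For Qpct they were Gm16150 (0.9994), Fut4 (0.9992) and Wfdc8 (0.9989), of 107 such genes. For Chga, whose profile combines a higher T + E2 level with a peak in replicate 1, they were Nrtn (0.999), Larp1b (0.9974) and Ash2l (0.9972), and only 4 genes passed 0.99.

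Other genes of the pathway were taken from written lists and read from the same fit. Of 7 tested convertases and convertase inhibitors outside the set, 0 rose and 1 fell by both thresholds, with a median log2 fold change of 0.43 where that of all tested genes was -0.0021, and 5 had an unadjusted p under 0.05. At least 3061 of the 15580 tested genes met that last limit, since so many had an adjusted p below 0.05 from edgeR. The adjusted limit is stricter, so more genes than this met the unadjusted one. Their number was not counted, and nothing is read from the 5. The gene that fell was Pcsk1n (proSAAS), an inhibitor of PC1/3, from 25.8 ± 0.787 to 10.2 ± 5.82 CPM (SD, n = 3 in each; log2 fold change -1.33, adjusted p = 0.0415 from edgeR), and the call was lost without any 1 of the CON mice or T + E2 replicate 1 or 2 (0 called in each case). Levels per length in this list ranged widely in the CON group, with Furin at 9.73 ± 0.707 FPKM but Pcsk5 at 0.928 ± 0.163 FPKM, close to the 0.936 ± 0.0899 FPKM of Pcsk1 (SD, n = 3). Furin had 0.57 on the log2 scale (adjusted p = 0.00615 from edgeR) and Mbtps1, the site-1 protease, 0.69 (adjusted p = 0.00199), higher in 3 of 3 T + E2 mice but under the threshold on the fold change. The ratio of Pcsk1 to Furin in FPKM was 0.0878, 0.113 and 0.0894 in CON mice, against 0.0197, 0.0487 and 0.0326 in the T + E2 mice.

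Of 7 tested relatives of Cpe and Qpct, 1 rose and 1 fell (median -0.10). Cpn1, the catalytic subunit of plasma carboxypeptidase N, had 0, 0 and 1 counts in CON mice, against 27, 27 and 26 in the T + E2 mice (adjusted p = 0.000561 from edgeR). Cpxm1 fell by 1.48 on the log2 scale (adjusted p = 0.00398). Cpd and Cpm, which share the fold and substrate preference of Cpe, stood at 0.14 (adjusted p = 0.365) and -0.10 (adjusted p = 0.706). Of 16 tested peptidases that degrade peptides, only Anpep (aminopeptidase N) was called, with 145.1 ± 9.31 CPM in the CON and 503.1 ± 38.4 CPM in the T + E2 group (SD, n = 3; log2 fold change 1.79, adjusted p = 3.51e-05 from edgeR), and without CON replicate 1 the list had 2 called.

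Dense-core granule genes outside the set held 2 that rose and 4 that fell among 17 tested (median -0.62). Those that fell were Ptprn2 (-2.38, adjusted p = 0.000218 from edgeR), Ptprn (-1.55, 0.0179), both granule membrane proteins, the granin Scg3 (-1.36, 0.0153) and the monoamine transporter Slc18a1 (-1.03, 0.00595). Those that rose were the granule-docking GTPase Rab27a (1.05, 0.0145) and its effector Sytl5 (1.07, 0.00912), and 3 genes of the list were called without CON replicate 3. The calls of Rab27a (without CON 3 or T + E2 2), Sytl5 (CON 3 or T + E2 1), Slc18a1 (CON 3 or T + E2 3) and Ptprn (T + E2 2) were lost when that mouse was left out. Of 15 tested genes of synaptic vesicles and exocytosis, 0 rose and 5 fell (median -0.94), among them Syn1 (-1.62, adjusted p = 0.0152) and Snap25 (-1.38, 0.0268). This number was 2, 2 and 1 without CON replicates 1, 2 and 3 and 3 without T + E2 replicate 1, and Snap25 lost its call without any 1 of the CON mice. Nerve markers moved with this list, with 10 of 20 fallen (median -1.34) and summed levels of 546.6 to 654.6 CPM in the CON and 151.4 to 321.9 CPM in the T + E2 mice, and their part in it was not tested. The nerve marker count was 5 and 4 without CON replicates 1 and 2 and 5 without T + E2 replicate 1.

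Neuroendocrine lineage markers gave 1 that rose and 4 that fell among 9 tested (median -1.06). Avil, Celf3, Eno2 and Uchl1 fell by 1.67, 1.57, 1.22 and 1.06 in log2 units (edgeR adjusted p = 0.011, 0.0208, 0.025 and 0.0323), whereas Tph1, the first enzyme of serotonin synthesis outside the brain, rose by 1.18 (adjusted p = 0.0461). Among the listed genes that did not pass the filter on low counts were the transcription factors Insm1, Neurod1 and Nkx2-2, which help to define the lineage, and the Notch ligand Dll3. The number called was 1, 2 and 3 without CON replicates 1, 2 and 3, and 2 and 3 without T + E2 replicates 1 and 2, and of the genes named only Avil was called whichever mouse was left out. Eno2 and Uchl1 are also neuronal genes, and the summed nerve markers given above moved the same way. All 4 genes that fell, Avil among them, were lowest in T + E2 replicate 1, the mouse with the lowest nerve markers. Avil had 2.9 CPM there, against 7.36 and 8.07 CPM in the other T + E2 mice. The part of nerve content in these values was not tested.

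Among 17 tested precursors of peptide hormones and neuropeptides, the possible substrates of this machinery, 4 rose and 5 fell (median -0.48), and 18 of the 35 listed did not pass the filter. Galanin (Gal) had the largest log2 fold change of those that rose, with 0.198, 0.328 and 0.251 CPM in CON mice, against 2.42, 5.66 and 11.7 CPM in the T + E2 mice (log2 fold change 4.63, adjusted p = 0.00261 from edgeR). The detection limits of the CON mice were 0.198, 0.197 and 0.188 CPM. Their Gal values lay at or little above these, so the size of the change is uncertain. Neuromedin B (Nmb) and insulin-like growth factor 1 (Igf1) rose by 1.34 and 1.30 (adjusted p = 0.014 and 0.00277). Adrenomedullin 2 (Adm2), somatostatin (Sst), Cartpt and Calcb fell by 3.16, 2.05, 1.89 and 1.70 (adjusted p = 0.0312, 0.0153, 0.0032 and 0.0259). Sst had only 2, 8 and 4 counts in the T + E2 mice, around the detection limit of 3 counts. Without T + E2 replicate 1, 4 rose and 2 fell. The number called in either direction was 5 and 4 without CON replicates 2 and 3 and 5 without T + E2 replicate 3. The calls of Adm2 (without CON replicate 1 or any 1 of the T + E2 mice), Sst (CON 2 or 3, T + E2 3), Calcb (CON 2 or 3, T + E2 1 or 2) and Nmb (CON 3) were lost when a mouse was left out. Sst, Cartpt and Calcb, which fell, are also made by neurons, as are Gal and Nmb, which rose. In the same mice 10 of the 20 nerve markers fell, with the summed levels given above. Their part in the precursor values was not tested. Proenkephalin (Penk) stood at 63 ± 12 CPM in the CON and 64.9 ± 2.68 CPM in the T + E2 group (SD, n = 3; adjusted p = 0.862).

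**Figure D5:**
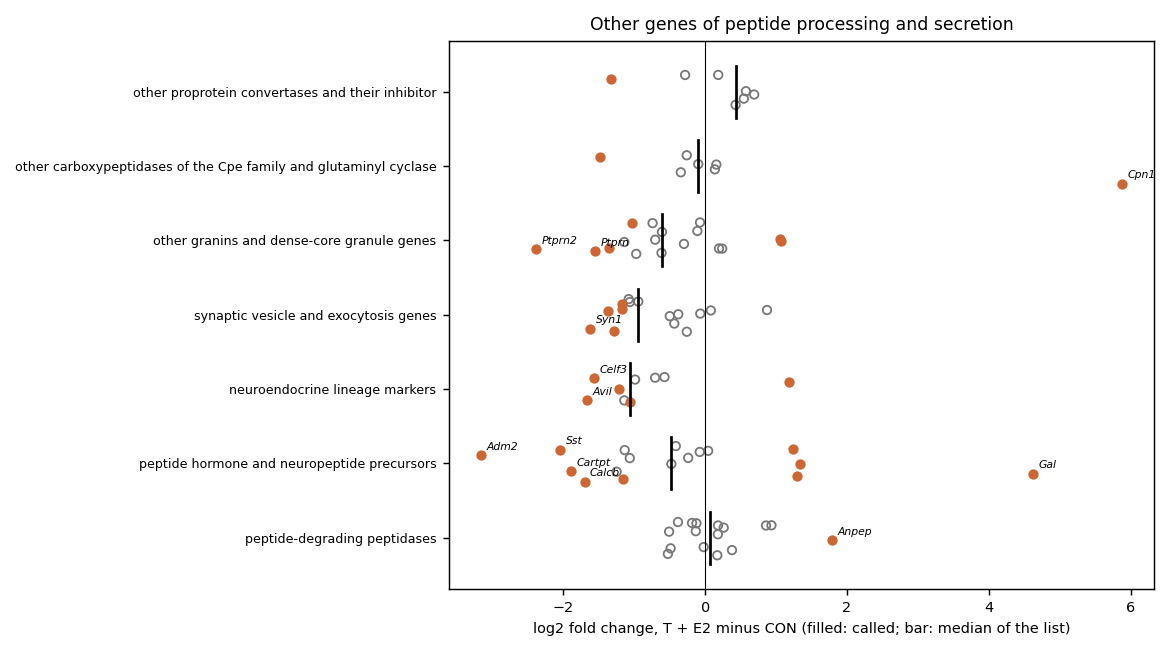
Log2 fold change (T + E2 minus CON) of each tested gene in 7 lists of the pathway outside the set, with filled points for genes past both thresholds, open points for the others and a black bar at the median of the list. Most called points of the granule, vesicle and neuroendocrine lists lie left of 0, and the value of Cpn1, with 1 count in all CON mice together, depends on the prior count of the fit and is no measured size.

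Markers of other cells of the tissue were read in the same way. Schwann cell markers had 2 of 12 fallen, among them Sox10 (-1.66, adjusted p = 0.00259 from edgeR), and 1 without CON replicate 1 or 2 or T + E2 replicate 1. Of 11 markers of stroma and smooth muscle 0 were called by edgeR and 0 by DESeq2. An unadjusted p under 0.05 was found for 3 of them. More than 3061 of the 15580 tested genes met that limit, since 3061 met the stricter adjusted one. The full number was not counted, so nothing is read from the 3. Mast cell and monocyte markers had 1 that rose, Itgam, which the table lists under more than one identifier, and 1 that fell, Mcpt4, among 11 tested, and 1 without CON replicate 1 or T + E2 replicate 1. Prostate epithelial markers had 1 that rose, Epcam, and 2 that fell, Pbsn and Tgm4, among 12 (log2 fold changes 1.18, -3.29 and -2.91). Over the 12 the median was -0.15, with 5 above 0 and 7 below. Their summed level, which is weighted to the most abundant genes, was 34900 to 47980 CPM in the CON and 7668 to 9546 CPM in the T + E2 mice. Of 7 tested markers of seminal vesicle and skeletal muscle 0 were called by edgeR, and 1, Svs4, had an unadjusted p under 0.05. DESeq2 also called 0, but it gave no p-value for Svs4 and Svs5.

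All 10 members are annotated as protein-coding in release M21 of GENCODE. The sources used here do not state whether counting used the strand. Syp shares 875 exon bases with Gm14703 on the opposite strand, and that gene had at most 12 counts in a mouse. Pcsk2 shares 260 and 99 exon bases with Pcsk2os1 and Pcsk2os2, with at most 5 and 2 counts. Pam shares 188 exon bases with B230216N24Rik on the same strand, with at most 48 counts. Stretches of at least 100 bases at 90% identity or more joined Pam to 156 other genes, over up to 150 bases, and Pcsk2 to 62, over up to 402 bases, so a part of their reads could be shared. The other members except Syp had no such stretch.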

How the data were processed

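RNA from prostate tissue of 3 CON and 3 T + E2 mice was measured by paired-end RNA sequencing of TruSeq libraries. The submitters' processing notes name TopHat, Bowtie2 and HTSeq. Their versions, the genome build and the strand setting are not given in the sources used here, and the coordinates in the table are those of GRCm38. The deposited count values are whole, unnormalized reads per gene. The FPKM values were made by the authors from these counts, scaled to library size and gene length, and were used here to compare levels between genes and, in the alternatives, between groups. Groups were taken from the labels.

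Counts were filtered with filterByExpr (at least 10 counts in enough samples and 15 in total), scaled by TMM and tested by the quasi-likelihood method of edgeR (4.0.16), and p-values were adjusted by Benjamini-Hochberg over 15580 genes. Called genes had an adjusted p below 0.05 and a log2 fold change beyond 1 in either direction. The standard error is the size of the log2 fold change over the square root of F. Alternatives were DESeq2, limma on log2(FPKM + 0.1) and log2(FPKM + 1), library totals, other filters, no fold threshold, a replicate block and the omission of each mouse. Scripts were tested on simulated data. The members and lists were chosen with earlier results of these data known. Of each other list, the rule named the called genes, up to 6 by size of the log2 fold change, and the 2 with the highest mean CPM, and for each called member the 3 genes with the most similar profile. Qpctl, Pcsk5 and Hoxb13 were named outside this rule, after their values were seen. Labels do not say more of the mice than their group, so p-values measure the spread between these samples. No protein sequences were used here, and promoters of Cpe and Qpct were not analysed here. Some genes of the lists are not reported here.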

Additional observations from a re-analysis of the deposited data

How the results depend on the processing

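Of the members, 3 were called in the main analysis and 3 to 4 when a mouse was left out. Genes called in all numbered 972 to 1152 without single mice, 561 with limma on FPKM + 1, 3061 with no fold threshold and 1013 with the replicate block. The labels give no pairing of mice by replicate number. The correlation of deviations between mice of the same number was -0.0516, 0.0275 and 0.0463, which cannot exclude a small shared effect. With the block, 3 members were called. With no fold threshold, 4 convertases, 10 dense-core, 9 synaptic, 5 peptidase, 5 mast cell and monocyte, 6 epithelial and 2 stromal genes were called. With limma on FPKM + 0.1 these were 0 convertases, 2 synaptic and 3 neuroendocrine genes. With limma on FPKM + 1 they were 1 carboxypeptidase, 3 dense-core, 3 synaptic, 2 neuroendocrine and 5 precursor genes, and with a filter at FPKM of 1, 1 carboxypeptidase. The replicate block called 1 seminal vesicle gene, Svs4. Leaving out single mice gave 0 to 1 convertases, 3 to 6 dense-core, 1 to 5 synaptic, 1 to 5 neuroendocrine, 4 to 6 precursor, 1 to 2 peptidase, 4 to 9 nerve, 1 to 2 Schwann cell and 1 to 3 mast cell and monocyte genes.

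The sign of some log2 fold changes was not stable. Chgb was at 0.05 without CON replicate 2 and 0.37 without T + E2 replicate 1 (range without single mice -0.53 to 0.37). Scg2 was at -0.0072 with library totals, -0.27 and -0.15 with limma on FPKM + 0.1 and FPKM + 1, -0.18 with the replicate block, -0.02 and -0.04 without CON replicates 2 and 3, and -0.48 and -0.05 without T + E2 replicates 2 and 3 (range -0.48 to 0.44). Cpm was at 0.033 without CON replicate 1 (range -0.27 to 0.033) and Penk at -0.11 without CON replicate 2 (range -0.11 to 0.16). Svs4 and Svs5 were at 2.15 and 5.68 without CON replicate 2 and reached -11.97 and -11.40 without T + E2 replicate 2, the first being the mouse that held nearly all their counts. The cause of the other changes was not tested. Depth limits mostly Pcsk1, with 16 to 56 counts per mouse, Pcsk2, with 9 to 44, and Scg5, with 12 in T + E2 replicate 1 and 116 at most.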
